A study of Mus musculus with 9 samples.

Results

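Divergent promoters carried by a shared H3K4me3 peak were the regions described here. They were taken from the granulocyte-macrophage progenitor (GMP) peak list as the intervals annotated as promoter to 2 or more genes lying on opposite strands. This choice gave 2453 of the 20109 promoter intervals and of the 30645 intervals of that list. Another 213 promoter intervals were shared by genes on 1 strand, and 17443 belonged to 1 gene. The 2453 intervals fell into 1331 gene sets. Of these sets 1308 were pairs of 1 plus-strand and 1 minus-strand gene, covering 2418 intervals and 2612 genes, which is 11.1% of the 23471 genes of the RNA tables. The other 23 sets held more than 2 genes and were not used as pairs. The regions were chosen by their peak positions in GMP, so peak lengths and heights in GMP are given as a description, with no test.

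The study followed eosinophil development in untreated Balb/c mice, with cells sorted from pooled bone marrow. GMP were gated as CD34+, CD16/32+, c-kithi and Lin-. Eosinophil progenitors (EoP) were CD125+, CD34+, c-kitlo and Lin-, where CD125 is the interleukin 5 receptor alpha chain, and eosinophils (Eos) were CCR3+ and Siglec-F+. RNA was sequenced in 2 libraries per cell type, and H3K4me3 chromatin immunoprecipitation in 1 library per cell type. The labels give neither the age nor the number of the pooled mice, and they do not say whether the 2 RNA libraries came from separate pools, so the p-values measure only the spread between these libraries.

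H3K4me3, trimethylated lysine 4 of histone H3, marks nucleosomes beside active and poised transcription start sites. At a divergent (bidirectional) promoter, a pair of genes starts from adjacent sites and is transcribed in opposite directions. Such promoters are mostly CpG islands without a TATA box, and they are known to be frequent among genes for DNA repair, mitochondrial and other housekeeping functions. The nucleosome-free stretch that binds polymerase lies between the starts and is flanked by marked nucleosomes on both sides.

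The stretches between the starts of 8 pairs described later are shown to let their length and composition be compared. They belong to pairs whose RefSeq starts lie at most 250 bases apart: 3 pairs whose ratio changed (Chpf/Tmem198, Il17rb/Chdh, Cpeb3/March5), 3 that changed together (Elmod3/Retsat, Ppp1r3d/Fam217b, Tcf19/Cchcr1), 1 that moved in opposite directions (Mitd1/Mrpl30) and 1 textbook pair (Hspd1/Hspe1). Each is the plus strand of GRCm38.p6 from RefSeq, 5′ to 3′, from the base after the minus-strand gene's RefSeq start to the base before the plus-strand gene's RefSeq start. The minus-strand gene is named first. No transcript of the RNA tables covered these bases. Capitals mark matches to any of the 10 motifs listed after them.
Chpf/Tmem198: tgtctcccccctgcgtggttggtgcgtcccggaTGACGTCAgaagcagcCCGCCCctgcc
Il17rb/Chdh: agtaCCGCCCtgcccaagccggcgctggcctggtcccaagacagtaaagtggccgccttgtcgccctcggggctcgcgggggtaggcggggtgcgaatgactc
Cpeb3/March5: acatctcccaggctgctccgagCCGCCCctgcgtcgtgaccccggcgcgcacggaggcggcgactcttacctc
Elmod3/Retsat: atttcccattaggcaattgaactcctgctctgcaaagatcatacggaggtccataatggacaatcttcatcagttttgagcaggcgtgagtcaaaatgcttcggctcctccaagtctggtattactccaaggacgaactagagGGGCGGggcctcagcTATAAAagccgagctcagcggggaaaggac
Ppp1r3d/Fam217b: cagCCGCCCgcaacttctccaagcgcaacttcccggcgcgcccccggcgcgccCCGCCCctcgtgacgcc
Tcf19/Cchcr1: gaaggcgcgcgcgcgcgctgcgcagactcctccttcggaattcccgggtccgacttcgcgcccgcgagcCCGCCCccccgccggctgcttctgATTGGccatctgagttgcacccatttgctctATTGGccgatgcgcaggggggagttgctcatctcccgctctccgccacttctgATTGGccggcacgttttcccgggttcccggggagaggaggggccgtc
Mitd1/Mrpl30: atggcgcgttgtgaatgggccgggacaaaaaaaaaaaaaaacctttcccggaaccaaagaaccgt
Hspd1/Hspe1: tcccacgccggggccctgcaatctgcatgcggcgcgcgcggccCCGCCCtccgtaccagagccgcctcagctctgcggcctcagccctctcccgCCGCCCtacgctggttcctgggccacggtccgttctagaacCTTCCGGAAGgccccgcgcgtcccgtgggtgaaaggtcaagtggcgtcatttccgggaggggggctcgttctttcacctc

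Their positions were chr1:75479472-75479531 for Chpf/Tmem198, chr14:30008897-30008999 for Il17rb/Chdh, chr19:37207472-37207544 for Cpeb3/March5 and chr6:72598414-72598601 for Elmod3/Retsat. The others were chr2:178414464-178414533 for Ppp1r3d/Fam217b, chr17:35516825-35517048 for Tcf19/Cchcr1, chr1:37890412-37890476 for Mitd1/Mrpl30 and chr1:55087933-55088147 for Hspd1/Hspe1. The GC content of the 8 ran from 46.2% for Mitd1/Mrpl30 to 78.6% for Ppp1r3d/Fam217b. The Tcf19/Cchcr1 stretch held 26 CpG dinucleotides in 224 bases and 3 CCAAT boxes in reverse orientation beside a GC box. The Hspd1/Hspe1 stretch held 24 CpG dinucleotides in 215 bases, with ETS matches on both strands that overlap each other and 2 GC boxes. Elmod3/Retsat had the lone TATA box among the 8, and Chpf/Tmem198 the lone cyclic AMP response element. The Mitd1/Mrpl30 stretch matched none of the motifs, which says only that these letters are not in these 65 bases. A match is a description of letters and not a binding site.

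All motifs were searched as exact letters on both strands, and matches to different motifs may overlap. The TATA box was TATAAA and the CCAAT box the letters of its name. The GC box was GGGCGG and the ETS motif CCGGAAG. For the cyclic AMP response element the letters were TGACGTCA, for the E-box CACGTG and for GATA factors AGATAA. The other 3 were the NRF1, YY1 and ZNF143 motifs. RefSeq promoter windows of 300 bases, 250 before and 50 after the start, matched the plus-strand gene in 1089 of the 1308 pairs, the minus-strand gene in 1061 and both in 969. Windows of paired genes had a median GC content of 63% and a median CpG observed over expected ratio of 0.85. The ratio was 0.76 in 8333 windows of other genes with a GMP promoter peak, 0.21 in 7270 windows of genes without one and 0.58 over all 17753 windows. The TATA box stood in 4.78% of plus-strand gene windows of the pairs, 7.03% of the windows of other genes with a GMP peak and 12.9% of all windows. The ETS match stood in 27.7%, 16.5% and 12.2% of these 3 sets, and the GC box in 69.1%, 66.9% and 47.4%. The GATA match stood in 3.95%, 5.95% and 9.7%. In the same 3 sets NRF1 matched 2.39%, 2.05% and 1.35%, YY1 2.57%, 1.48% and 1.01%, and ZNF143 3.21%, 2.33% and 1.53%. The cyclic AMP response element matched 4.22%, 3.17% and 2.35%, and the E-box 11.1%, 10.3% and 8.15%. The CCAAT box stood in 37.6% of plus-strand and 40.8% of minus-strand gene windows of the pairs, 38% of the windows of other genes with a GMP peak and 39% of all windows. Windows of 2 paired genes can overlap each other. Those of paired genes were taken nearest the start at the shared peak, and those of other genes nearest their listed start of lowest coordinate. For a gene with several starts the latter need not be the marked one. The part of this choice in the differences was not tested.

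Most starts of a pair lay close together. The bases between the starts had a median of 149 with quartiles of 51 and 323, and ran from -2116, where the starts cross, to 1826. Starts crossed in 231 pairs, lay 0 to 100 bases apart in 272, over 100 and up to 300 in 446, over 300 and up to 1000 in 305 and over 1000 in 54. Both genes were protein coding in 921 pairs (70.4%), 1 was noncoding in 383 (29.3%) and both in 4. Transcripts overlapped in 270 pairs (20.6%). Whether reads were counted by strand is not stated, so reads in such an overlap cannot be told apart. Just outside the rule, 10 opposite-strand neighbours with both genes tested and a GMP promoter peak at both lay within 1000 bases and shared no peak. Such neighbours without a GMP promoter peak at both genes are not in this count.

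The mark lay on both sides of the starts and was often interrupted between them. Of the 1308 pairs, 447 carried 1 interval annotated to both genes, 630 carried 2, 213 carried 3 and 18 carried 4. Intervals annotated to 1 of the genes alone were left out of these counts and of the cover given next. Nipal3/Stpg1, for instance, had 376 bases in its shared interval and 782 on the Nipal3 side over all GMP intervals. Together the intervals of a pair covered a median of 1221 bases, and those of the 10584 promoters of 1 gene covered 873. At least 2 intervals were present in 65.8% of pairs and in 48.6% of promoters of 1 gene. In the 547 pairs with 2 intervals and starts that did not cross, the uncovered stretch between the intervals had a median width of 185 bases (quartiles 106 and 276). It touched the bases between the starts in 490 of them (89.6%), and its midpoint lay a median of 43.5 bases from the middle between the starts. Where 1 interval of both genes was present and starts did not cross (331 pairs), it spanned both starts in 181 pairs (54.7%). In 122 it extended to or past the starts on 1 side only, which includes intervals that reach neither start, as at Parp3/Rrp9. The widest interval, at BC037034/6330418K02Rik, was 2061 bases long (chr5:138262370-138264430), and the narrowest were 89 bases long.

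**Figure D1:**
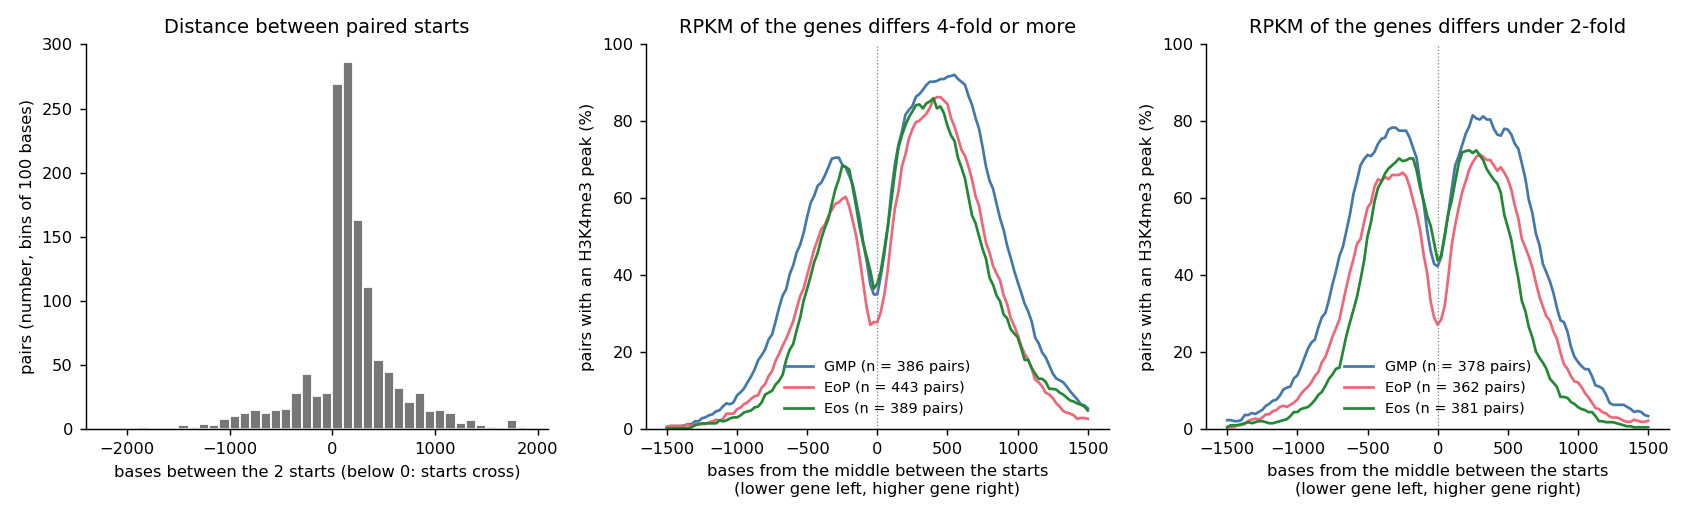
Left, number of pairs by the bases between their starts in bins of 100 bases. Middle and right, percent of pairs with non-crossing starts and no transcript overlap that had an H3K4me3 peak at each distance from the middle between the starts, drawn with the gene of lower RPKM on the left, for pairs whose genes differed at least 4-fold and under 2-fold. Fold classes were set after 0.5 was added to each RPKM. In GMP the 4-fold pairs reached 92% on the side of the higher gene and 70.5% on the side of the lower gene, with 35% at the middle.

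The mark leaned toward the gene with more RNA. RPKM, reads scaled by transcript length and library depth, allows levels of different genes to be compared. In GMP the genes of a pair had a median of 2.32 RPKM, in EoP 3.19 and in Eos 1.78. The higher gene exceeded its partner by a median ratio of 3.99 in GMP, 4.66 in EoP and 4.69 in Eos, over pairs with both genes above 0. Both genes reached 1 RPKM in 47.2% of pairs in GMP, 51.8% in EoP and 40.3% in Eos. Across pairs, log2 levels of the 2 genes had a Pearson correlation of 0.12 in GMP, 0.14 in EoP and 0.1 in Eos (1308 pairs that share their libraries). For the fold classes that follow, 0.5 was added to each RPKM, so pairs with both genes near 0 fell in the class under 2-fold. The side of a gene is the side of the middle between the starts toward which it is transcribed. Where starts cross, that side holds the start of the other gene. Among pairs whose genes differed at least 4-fold on this scale, the highest peak summit lay on the side of the higher gene in 365 of 484 in GMP (75.4%). It did so in 420 of 549 in EoP (76.5%) and 359 of 482 in Eos (74.5%). For coding pairs without transcript overlap these shares were 78.1%, 79.1% and 80.7%. In the plot of peak cover around the middle between the starts, 500 bases to the side of the higher gene a peak was present in 91.5% of the 4-fold pairs in GMP, against 55.2% at the same distance on the other side. EoP gave 84.4% and 40%, and Eos 78.7% and 36.5%. Pairs whose genes differed under 2-fold gave 77.8% and 71.2% in GMP. Each cell type has 1 H3K4me3 library, so these shares carry no replicate error.

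The shared promoters were mostly marked in all 3 cell types. Of the 2453 intervals, 2067 (84.3%) were overlapped by at least 1 base by an EoP peak and 2105 (85.8%) by an Eos peak. Among the 17443 promoter intervals of 1 gene these shares were 67.6% and 71.9%. In GMP the shared intervals were also longer (median 613 against 475 bases) and had a higher median fold enrichment (7.65 against 7.05). The part of this difference in the shares was not tested. Both lists overlapped 1978 intervals (80.6%) and neither list 259. The 259 had a median fold enrichment of 4.07 and a median length of 162 bases in GMP, against 8.43 and 694 for those in both. Counted by pair, 1219 of 1308 (93.2%) had an overlapping EoP peak, 1231 (94.1%) an Eos peak and 68 neither. The EoP list named the same gene pair as sharing a promoter peak for 1213 pairs and the Eos list for 1230.

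RNA depth ran from 5226653 counts in 1 GMP library to 12088134 in 1 EoP library, and the log2 levels of the 2 libraries of a cell type correlated at 0.966 to 0.974 across genes. The sorted cells carried their defining genes: the 5 EoP markers summed to 210000 and 166000 CPM (counts scaled to library size) in EoP against 1140 and 290 in GMP and 5630 and 4860 in Eos. The 4 Eos markers summed to 9360 and 14600 CPM in Eos, 3180 and 3180 in EoP and 34.4 and 25.3 in GMP. The 7 GMP markers summed to 39600 and 37100 CPM in GMP, 2760 and 3190 in EoP and 14300 and 5520 in Eos. Their sum was thus higher in Eos than in EoP and uneven between the Eos libraries. Mpo, most of this sum in both, and Elane were higher in Eos, while Kit fell from 200 and 237 CPM in EoP to 111 and 39.1. Prg2 made up most of the EoP marker sum in EoP (176000 and 137000 CPM). Il5ra, in both the EoP and the Eos list, measured 436 and 399 CPM in EoP and 619 and 1180 in Eos. Neutrophil markers (8 of 8 detected) summed to 40200 and 46900 CPM in Eos, 614 and 259 in EoP and 1920 and 553 in GMP. Basophil and mast cell markers (4 of 4) summed to 1010 and 964 CPM in GMP, 863 and 3650 in EoP and 89.1 and 32 in Eos, with 1 EoP library below both GMP libraries. A list of 8 early response and heat shock genes was uneven within each cell type, with 435 and 2210 CPM in GMP, 4210 and 36.1 in EoP and 558 and 2850 in Eos. No defining marker was at 0 in all libraries. The part of these differences in the results below was not tested.

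From GMP to EoP few paired genes changed. All tests of genes were edgeR quasi-likelihood tests over 14324 genes with Benjamini-Hochberg adjustment, and genes were called at an adjusted p under 0.05. Of the 2612 paired genes 2305 (88.2%) had enough counts to be tested, and 1031 pairs had both genes tested, 247 had 1 and 30 had none. In EoP against GMP 290 paired genes were called (12.6%), where 26.6% of all genes tested were called. The 159 that rose were 6.9% of the paired genes, against 9.49% of all genes, and the 131 that fell were 5.68%, against 17.1%. Among 9360 other genes with a GMP promoter peak 22.9% were called. The median log2 fold change of the paired genes was 0.09, and that of all genes -0.07. Both medians were the same with genes of 0 counts in 1 group set at the bound that 3 counts over the group give. The count of 290 dropped to 47 and 73 when GMP replicates 1 and 2 were left out in turn and to 84 and 129 for the EoP replicates, and rose to 542 and 537 for the Eos replicates, and the share of paired genes called stayed under that of all genes in all 11 alternatives run. In bulk RNA, fewer cells of a type and less RNA per cell cannot be told apart.

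Both genes of a pair rose in 15 of the 1031 pairs (1.45%), against 1.76% of all 10334 neighbouring pairs tested, and both fell in 9 (0.873%), against 3.82%. Both were called in 1 direction in 2.33% of the pairs, where all neighbouring pairs gave 5.58%. Of the 3129 opposite-strand neighbours over 1000 bases apart with a GMP peak at both genes, both rose in 70 and fell in 40, which together is 3.52%, and 1.57% had opposite calls. Opposite calls were made in 3 pairs (0.291%), where all neighbouring pairs gave 2.22%. In 181 pairs 1 gene was called and in 823 none. Joint and opposite changes were ranked below among pairs with at least 1 gene at a mean of 20 CPM in its higher group. Gene models (Gm, Rik and LOC names), micro and small nucleolar RNAs were left out of the ranking. Prepl and Camkmt, which start 432 bases apart at chr17:85089676-85091348, showed the joint rise with the largest smaller change in it. Prepl, a prolyl endopeptidase-like hydrolase, measured 36.6 and 30.7 CPM in GMP, 309 and 258 in EoP and 37.8 and 44 in Eos. Camkmt, the calmodulin lysine methyltransferase, measured 10.4 and 5.36 in GMP, 52.5 and 43.5 in EoP and 10 and 10.5 in Eos. Both EoP libraries lay above all others for both genes. Prepl rose 8.43-fold (log2 3.07, SE 0.24, adjusted p = 5.72e-05, edgeR) and Camkmt 6.03-fold (log2 2.59, SE 0.34, adjusted p = 0.000991, edgeR), and the log2 ratio of Camkmt to Prepl changed by -0.43 (SE 0.37, adjusted p = 0.431, limma). From EoP to Eos both returned, Prepl by -2.79 (SE 0.23) and Camkmt by -2.22 (SE 0.33) on the log2 scale. The mark covered 807 bases on the Prepl side and 732 on the Camkmt side in GMP, 671 and 755 in EoP and 677 and 686 in Eos. Here and below, covered bases were counted within 1000 bases of the middle between the starts. They were not adjusted for differences between the peak lists, which held 30645 intervals in GMP, 19816 in EoP and 33847 in Eos.

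Mphosph10, of the U3 small nucleolar ribonucleoprotein, rose 3.38-fold from 59.1 and 71.1 CPM in GMP to 237 and 202 in EoP. Mcee, methylmalonyl-CoA epimerase, rose 3.15-fold from 29.3 and 23.2 CPM to 91 and 75, and the groups of both genes did not overlap. At Slc16a6/Arsg, Arsg (the lysosomal arylsulfatase G) measured 1.45 and 3.58 CPM in GMP, 10.5 and 12.4 in EoP and 53.4 and 93.7 in Eos. The mark covered 0 bases on the Arsg side in GMP and in EoP and 184 in Eos. The transcripts of this pair overlap by 223 bases. Slc16a6, of the monocarboxylate transporter family, measured 37.8 and 43.1 CPM in GMP, 75.7 and 109 in EoP and 80.4 and 105 in Eos. Mrpl41, a mitochondrial ribosomal protein gene, rose 2.16-fold and Pnpla7, a lysophospholipase gene, 2.68-fold in EoP. In Eos Pnpla7 stood at 288 and 477 CPM and Mrpl41 at 19.1 and 21.2, and the log2 ratio of Pnpla7 to Mrpl41 rose by 3.53 from EoP (SE 0.32, adjusted p = 0.000272, limma). The calls of Arsg, Slc16a6, Mrpl41 and Pnpla7 in EoP against GMP were lost when at least 1 of the GMP libraries was left out.

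In the same ranking, joint falls were led by Tmem176b and Tmem176a, paralogous membrane protein genes of myeloid cells. Their starts lie 281 bases apart (chr6:48840036-48841813). Pairs with fewer counts that the ranking left out, such as Tmie and Als2cl, fell further and are given below. Tmem176b measured 52.4 and 51.2 CPM in GMP, 9.55 and 14.4 in EoP and 11.4 and 5.96 in Eos. Tmem176a measured 30.7 and 30.7 in GMP, 4.6 and 3.6 in EoP and 6.73 and 2.57 in Eos. Both GMP libraries were higher than all others for both. In EoP Tmem176b fell by 2.11 (SE 0.34, adjusted p = 0.00334, edgeR) and Tmem176a by 2.91 (SE 0.45, adjusted p = 0.00245, edgeR) on the log2 scale. The GMP peaks, with a fold enrichment of up to 6.12, had no overlapping peak in the EoP and Eos lists. As paralogs the genes could share reads, and the counting of reads with several matches is not stated, so both values are uncertain. Sgsh, the lysosomal heparan sulfamidase, measured 11.7 and 13.4 CPM in GMP, 4.72 and 4.97 in EoP and 26.8 and 36.2 in Eos. Its partner Slc26a11, an anion transporter, had 29 counts in the 2 GMP libraries, 3 in EoP and 36 in Eos. Scaled to library size, this count was 13 times lower in EoP than in GMP (95% counting interval 4.02 to 66.5) and 13.1 times higher in Eos than in EoP (4.13 to 66.3). Retsat, retinol saturase, fell by 1.86 (SE 0.41) from 47.7 and 39.9 CPM in GMP to 13.3 and 10.9 in EoP. Elmod3 fell 2.18-fold (SE 0.37 on the log2 scale, adjusted p = 0.0482, edgeR), from 12.6 and 14.3 CPM to 5.78 and 6.51, and its call was lost in 7 alternatives. The calls of Sgsh, Slc26a11 and Retsat in EoP against GMP were lost when any 1 of the GMP or EoP libraries was left out.

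Opposite calls were made for Mitd1/Mrpl30, Kctd10/Ube3b and Sirt3/Psmd13. Mitd1, a cytokinesis protein gene, measured 11.3 and 8.64 CPM in GMP and 21.6 and 23.7 in EoP, while Mrpl30 measured 81.6 and 82.5 in GMP and 52.8 and 39.8 in EoP. As a log2 ratio, Mrpl30 to Mitd1 fell by 2.04 (SE 0.38, adjusted p = 0.00497, limma). Kctd10, a cullin 3 adaptor gene, rose from 138 and 119 CPM to 280 and 240 in EoP and to 417 and 544 in Eos. Its neighbour Ube3b, a ubiquitin ligase gene, measured 101 and 95.2 CPM in GMP, 59.2 and 56.2 in EoP and 99.5 and 96.4 in Eos. The log2 ratio of Ube3b to Kctd10 fell by 1.77 in EoP (SE 0.27, adjusted p = 0.00276, limma). Sirt3, the mitochondrial deacetylase, measured 24 and 32.5 CPM in GMP and 12.3 and 16.1 in EoP. Psmd13, a proteasome subunit, measured 24.7 and 30.4 CPM in GMP and 70.5 and 43.1 in EoP. On the log2 scale, the ratio of Psmd13 to Sirt3 rose by 1.94 (SE 0.42, adjusted p = 0.00899, limma). The edgeR calls of all 6 genes were lost when either GMP library was left out.

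The ratio of the 2 genes changed in 89 of the 1031 pairs (8.63%) from GMP to EoP, where 25.7% of all 10334 neighbouring pairs changed. This was tested with limma on the log2 ratio of the plus-strand to the minus-strand gene in each library. Among the 3129 neighbours on opposite strands with starts over 1000 bases apart and a GMP promoter peak at both genes, 22.5% changed. The lower gene of a pair had a median of 9.83 CPM in the shared-peak pairs and 9.27 in those 3129. Il17rb, the receptor chain for interleukin 25, and Chdh, choline dehydrogenase, start 103 bases apart within 1 peak (chr14:30008435-30009503). Il17rb measured 7.02 and 9.83 CPM in GMP, 168 and 179 in EoP and 22.3 and 22 in Eos. Chdh measured 188 and 211 in GMP, 134 and 129 in EoP and 65.7 and 43.8 in Eos. Il17rb rose 20.7-fold in EoP (log2 4.37, SE 0.26, adjusted p = 2.31e-05, edgeR), and the change of Chdh was -0.6 (SE 0.24, adjusted p = 0.0885, edgeR). As a log2 ratio, Chdh to Il17rb fell by 4.99 (SE 0.36, adjusted p = 0.000356, limma). The mark covered 513 bases on the Il17rb side and 555 on the Chdh side in GMP and 649 and 394 in EoP. In Eos it covered 330 and 459.

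Amigo2, an adhesion molecule gene, measured 0.363 and 0.298 CPM in GMP, 24.1 and 11 in EoP and 0.603 and 0.702 in Eos. Pced1b, which shares its promoter, measured 22.4 and 23.4, 22.3 and 24.5, and 26 and 20.2 CPM in the same order. The groups of Amigo2 did not overlap and those of Pced1b did. The log2 ratio of Pced1b to Amigo2 fell by 5.26 in EoP (SE 0.84, adjusted p = 0.00296, limma) and rose by 4.45 in Eos (SE 0.75, adjusted p = 0.00281, limma), and the first call was lost without GMP replicate 1. The transcripts of this pair overlap by 181 bases. The mark covered 163 bases on the Amigo2 side in GMP, 0 in EoP and 146 in Eos. Chpf, the chondroitin polymerizing factor gene, measured 0.363 and 2.09 CPM in GMP, 23.7 and 18.6 in EoP and 2.61 and 1.52 in Eos. Tmem198, 60 bases away, measured between 0.468 and 2.23 CPM in all 6 libraries, and its changes were not called. On the log2 scale, the ratio of Tmem198 to Chpf fell by 5.52 in EoP (SE 0.85, adjusted p = 0.00272, limma). The mark covered 690 bases on the Chpf side in GMP, 705 in EoP and 684 in Eos, and 0, 0 and 55 bases on the Tmem198 side.

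In 3 further pairs the partner that moved had few counts. Stpg1, paired with the magnesium transporter family gene Nipal3, had 30 counts in the 2 GMP libraries and 0 in EoP and Eos. It was at least 13.4-fold lower in EoP than in GMP and at least 12.3-fold lower in Eos, with a floor of 3 counts over a group. Nipal3 measured 16.3 and 17.4 CPM in GMP, 25.2 and 29.4 in EoP and 39.4 and 62.8 in Eos. Wdr65, a cilium gene, had 90 counts in GMP, 2 in EoP and 24 in Eos, a ratio of 60.3 between GMP and EoP (95% counting interval 16.2 to 506). Its partner Ebna1bp2, a ribosome biogenesis gene, measured 67.8 and 70.9 CPM in GMP, 84.6 and 75 in EoP and 38.1 and 29.6 in Eos. Atp7b, a copper pump gene, had 35 counts in GMP and 2 in EoP, a ratio of 23.5 (6.03 to 201). Its partner Alg11, a mannosyltransferase gene of N-glycan synthesis, was not called in any of the 3 comparisons, and leaving out the first GMP or the first EoP library ended the call of their ratio.

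From EoP to Eos more paired genes changed, and most of them fell. Called were 839 paired genes (36.4%), where 36.8% of all genes tested were called. Among the 9360 other genes with a GMP promoter peak 40.5% were called, 20.5% higher and 20% lower. The share of paired genes called was under that of all genes in 8 of 11 alternatives, and under that of these other genes in 11. The 274 that rose were 11.9% of the paired genes, against 19.1% of all genes, and the 565 that fell were 24.5%, against 17.7%. The median log2 fold change was -0.3 for the paired genes and 0.02 for all genes (0.08 with genes of 0 counts in 1 group at their bound). Both genes rose in 32 pairs (3.1%), against 5.79% of all neighbouring pairs, and both fell in 91 (8.83%), against 4.19%. Both were called in 1 direction in 11.9% of the pairs and in 9.98% of all neighbouring pairs, and in opposite directions in 27 pairs (2.62%) and in 5.08% of all. Of the 3129 opposite-strand neighbours with a GMP peak at both genes, both rose in 147 and fell in 147 (9.4% in 1 direction), and 6.62% had opposite calls. The count of 839 ranged from 424 without EoP replicate 1 to 1047 without Eos replicate 1. The summed neutrophil markers were higher in both Eos libraries than in all others, and the summed GMP markers were higher in both Eos than in both EoP libraries, as given above, and their part in these counts was not tested.

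Among joint rises in the same ranking, Cln3 and Apobr had the largest smaller change. The pair 2010002M12Rik/Ifit1, which the ranking left out and which is given below, had a larger one (log2 3.83 for Ifit1). Cln3, a lysosomal membrane protein gene, measured 22.1 and 17.9 CPM in GMP, 26.4 and 30.8 in EoP and 254 and 441 in Eos. Apobr, the apolipoprotein B receptor gene, measured 13.4 and 16.4 in GMP, 48.8 and 40.4 in EoP and 571 and 611 in Eos. Both Eos libraries lay above all others for both genes. Cln3 rose 12.1-fold (log2 3.6, SE 0.31, adjusted p = 4.8e-05, edgeR) and Apobr 13.3-fold (log2 3.73, SE 0.24, adjusted p = 1.41e-05, edgeR). The starts of the 2 genes are 1771 bases apart. The GMP peak at chr7:126582915-126584040 spans the Cln3 start and ends before that of Apobr. On the Cln3 side the mark covered 918 bases in GMP, 471 in EoP and 395 in Eos, and on the Apobr side 0 bases in GMP, 0 in EoP and 600 in Eos. Dtx3l and Parp9, which encode the partners of a ubiquitin ligase and ADP-ribosyltransferase complex of the interferon response, rose together. Dtx3l measured 90.9 and 83.1 CPM in GMP, 47.1 and 48.9 in EoP and 173 and 210 in Eos. Parp9 measured 16.3 and 24.4, 17.5 and 19.2, and 58.1 and 81.5 CPM. Their log2 changes in Eos against EoP were 1.99 (SE 0.22) and 1.93 (SE 0.28), and the ratio changed by -0.08 (SE 0.32). Their transcripts overlap by 558 bases. Cept1, a phospholipid synthesis gene, rose 3.04-fold from 31.6 and 30.9 CPM in EoP to 91.3 and 98.9 in Eos. Its neighbour Dram2, an autophagy gene, rose 3.76-fold from 27.8 and 25.4 to 78 and 122. Ppp1r3d, a glycogen-targeting phosphatase subunit, measured 2 and 3.51 CPM in EoP and 10.5 and 17.8 in Eos. Fam217b, 70 bases away, measured 6.84 and 12 in EoP and 28.9 and 36.2 in Eos. The Ppp1r3d call was lost without EoP replicate 1 and without Eos replicate 2.

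Of the joint falls in the same ranking, those of 4 pairs followed Prepl and Camkmt in the size of the smaller change. Tcf19, a factor expressed with S phase, fell by 2.56 (SE 0.38, adjusted p = 0.000966, edgeR) from 47.6 and 50.8 CPM in EoP to 11.6 and 4.91 in Eos. Cchcr1, a centrosomal coiled-coil gene, fell by 2.02 (SE 0.42, adjusted p = 0.00488, edgeR) from 9.32 and 10.5 to 2.51 and 2.34. Cep76, a centriole gene, measured 50.2 and 45.3 CPM in EoP and 17.2 and 9.59 in Eos. Psmg2, a proteasome assembly chaperone, measured 51.2 and 46.1 in EoP and 14.7 and 7.13 in Eos. Rpgrip1l, a ciliary transition zone gene, and Fto, an RNA demethylase gene, fell by 1.8 (SE 0.27) and 1.86 (SE 0.27). Ppat and Paics, which encode enzymes of de novo purine synthesis, fell by 1.75 (SE 0.43) and 1.74 (SE 0.27). Paics measured 507 and 504 CPM in EoP and 186 and 117 in Eos, and Ppat 84.1 and 87.7 in EoP and 39.1 and 11.9 in Eos. The ratio of none of these 4 pairs was called as changed (log2 changes from -0.35 to 0.66).

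Of the 27 pairs called in opposite directions from EoP to Eos, Parp3 and Rrp9 had the largest smaller change in the same ranking. Parp3, an ADP-ribosyltransferase of DNA break repair, measured 1.94 and 3.13 CPM in GMP, 7.08 and 6.17 in EoP and 24.9 and 28.5 in Eos. Rrp9, of the U3 small nucleolar ribonucleoprotein, measured 12.3 and 14, 14.2 and 13.7, and 5.62 and 1.99 CPM. Per length, Rrp9 was the higher gene in GMP (2.78 and 3.04 RPKM against 0.254 and 0.396) and Parp3 in Eos (3.07 and 2.89 RPKM against 1.19 and 0.345). As a log2 ratio, Rrp9 to Parp3 fell by 4.01 (SE 0.59, adjusted p = 0.00165, limma). The mark covered 234 bases on the Parp3 side and 655 on the Rrp9 side in GMP, 0 and 265 in EoP and 228 and 301 in Eos. Senp8, the NEDD8 protease, measured 19.6 and 17.8 CPM in EoP and 6.33 and 4.09 in Eos, and Myo9a, an unconventional myosin, 51.9 and 74.1 and 147 and 231. Tubg1, gamma-tubulin, fell by 1.53 (SE 0.34) from 21 and 21 CPM, while Fam134c, of a family of endoplasmic reticulum receptors, rose by 1.67 (SE 0.37) from 14.3 and 11.8. Polr3g, an RNA polymerase III subunit, fell by 1.32 (SE 0.29) and its neighbour Mblac2 rose by 1.39 (SE 0.37). Leaving out EoP replicate 1 ended both calls, and leaving out EoP replicate 2 or Eos replicate 2 ended that of Mblac2. At Wdr65/Ebna1bp2, Ebna1bp2 fell by 1.24 (SE 0.23) and Wdr65 went from 2 to 24 counts (ratio 13.1, 95% counting interval 3.24 to 114). Its call ended when the first GMP or the first EoP library was left out.

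The ratio of the 2 genes changed in 227 pairs (22%) from EoP to Eos, where 29.2% of all neighbouring pairs and 34.5% of the opposite-strand neighbours over 1000 bases apart with a GMP peak at both changed. Cpeb3, a cytoplasmic polyadenylation factor, measured 0.242 and 2.23 CPM in GMP, 1.06 and 0.0857 in EoP and 13.1 and 20 in Eos. March5, a mitochondrial ubiquitin ligase, stayed between 34.6 and 48.2 CPM in all 6 libraries. The log2 ratio of March5 to Cpeb3 fell by 5.72 (SE 1.01, adjusted p = 0.00356, limma). Fgd6, a guanine nucleotide exchange factor gene, measured 16.8 and 9.83 CPM in GMP, 6.84 and 9 in EoP and 75.5 and 139 in Eos, while its neighbour Vezt, a junction protein gene, measured 11 and 8.74 in EoP and 7.93 and 4.79 in Eos. On the log2 scale, the ratio of Fgd6 to Vezt rose by 4.29 (SE 0.61, adjusted p = 0.00137, limma). The mark on the Fgd6 side covered 647 bases in GMP, 236 in EoP and 598 in Eos, so it was widest in GMP, where Fgd6 RNA lay far below that of Eos.

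Over the whole path from GMP to Eos, 1130 paired genes were called (49%), where 54.5% of all genes were called. Among the 9360 other genes with a GMP promoter peak 55.1% were called. The share of paired genes called was under that of all genes in 9 of 11 alternatives, and under that of these other genes in 11. The 435 that rose were 18.9%, against 22.7% of all genes, and the 695 that fell 30.2%, against 31.8%. Both genes rose in 58 pairs (5.63%), against 7.94% of all neighbouring pairs, and fell in 119 (11.5%), against 10.6%. Both were called in 1 direction in 17.2% of the pairs and in 18.5% of all neighbouring pairs, and in opposite directions in 80 pairs (7.76%) and in 11% of all. The opposite-strand neighbours with a GMP peak at both genes gave 17.4% in 1 direction (262 higher, 284 lower) and 11.8% in opposite directions. The ratio changed in 356 pairs (34.5%), where all neighbouring pairs gave 45.3%. This comparison shares its libraries with the 2 others and is no independent support for them. Cmc2, a cytochrome oxidase biogenesis gene, and Cenpn, a centromere protein gene, start 303 bases apart (chr8:116920897-116922260). Cmc2 measured 20.2 and 15.6 CPM in GMP, 133 and 112 in EoP and 251 and 308 in Eos. Cenpn measured 28.7 and 28.3, 44.8 and 33.5, and 12.1 and 6.55. The log2 ratio of Cenpn to Cmc2 fell by 5.6 (SE 0.45, adjusted p = 8.64e-05, limma) from GMP to Eos, while the mark covered 580 and 604 bases on the 2 sides in GMP and 522 and 604 in Eos.

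**Figure D2:**
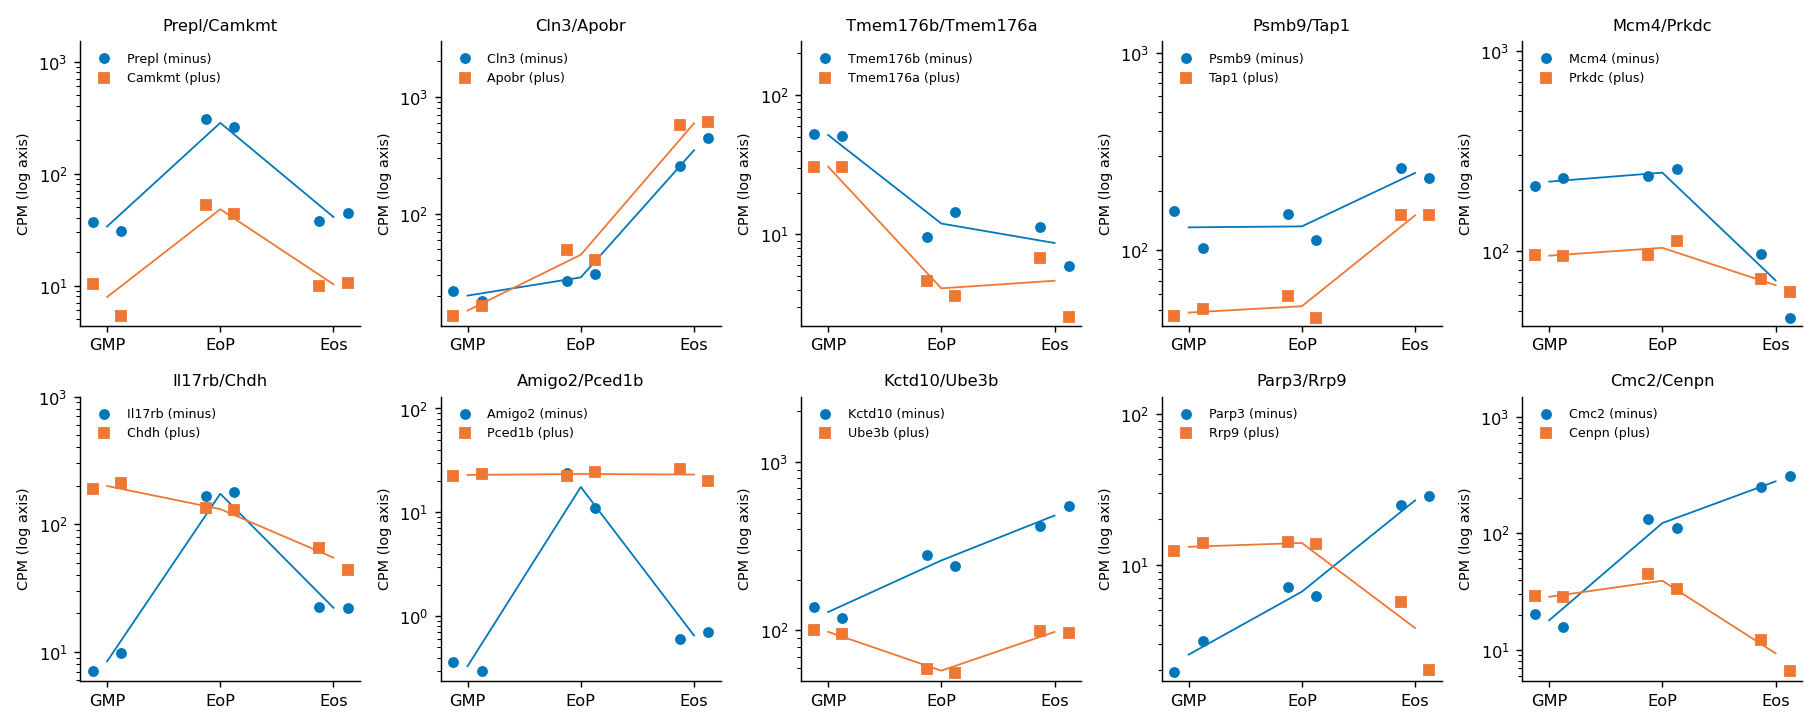
CPM of the 2 genes of 10 pairs in each library, on a log axis, with circles for the minus-strand and squares for the plus-strand gene and a line through the mean of the 2 libraries of each cell type. The pairs of the upper row moved in 1 direction at 1 or both steps, as Prepl (309 and 258 CPM in EoP) and Camkmt (52.5 and 43.5) did, and those of the lower row moved apart at 1 or both steps.

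Fold changes of the 2 genes of a pair were weakly related. Over the 1031 pairs, Pearson correlations of the log2 fold changes were 0.29 from GMP to EoP, 0.34 from EoP to Eos and 0.32 from GMP to Eos. Over the 9303 other neighbouring pairs they were 0.18, 0.2 and 0.21, and over the 3129 opposite-strand neighbours 0.09, 0.1 and 0.14. Pairs without transcript overlap (844) gave 0.25, 0.29 and 0.25, and those with overlap (187) 0.39, 0.49 and 0.56. These are descriptions over pairs that share their libraries. Where both genes were called, the calls had 1 direction in 88.9% of 27 shared-peak pairs, 82% of 150 and 68.9% of 257 for the 3 comparisons in that order. Other neighbouring pairs with both genes called gave 71%, 64.6% and 62.1%.

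**Figure D3:**
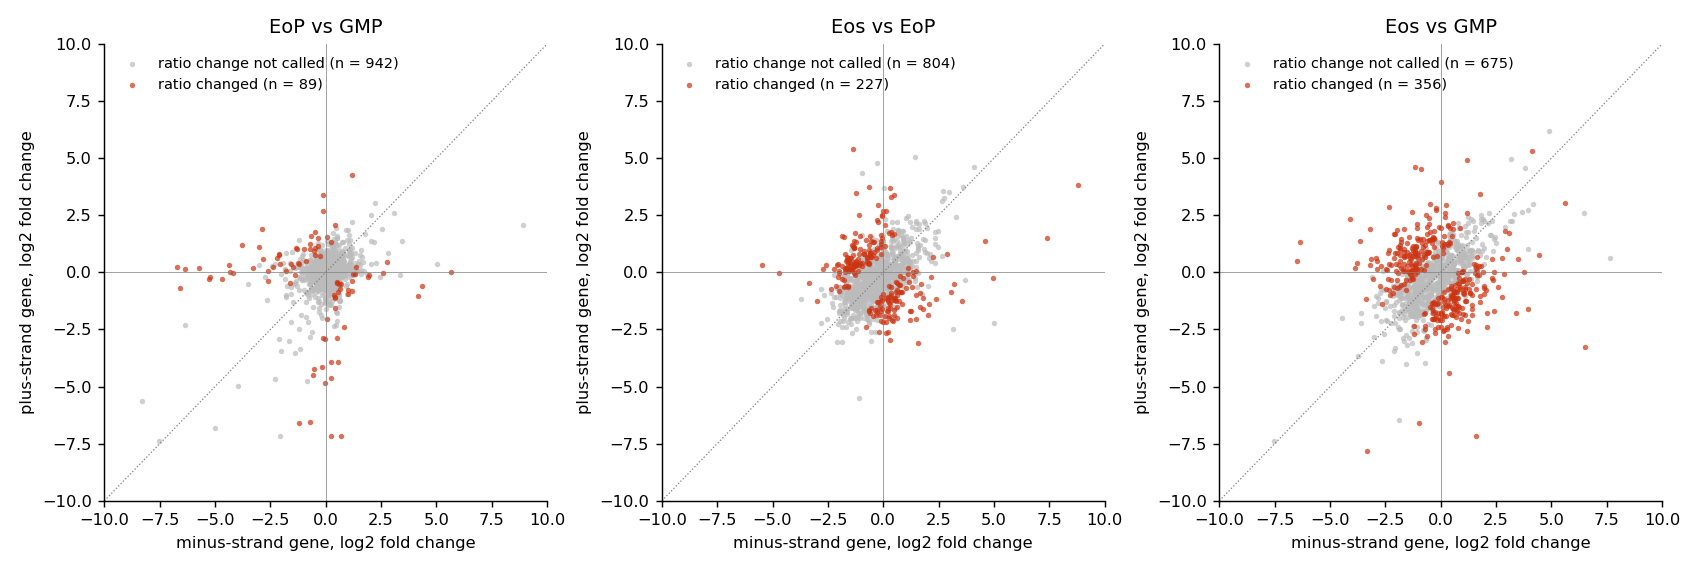
Log2 fold change of the plus-strand gene against that of the minus-strand gene for the 1031 pairs with both genes tested, 1 panel per comparison, with pairs whose ratio changed in red and the line of equal change dotted. The numbers of red points are 89, 227 and 356, and the fitted value of a gene with a group at 0 counts depends on the prior count.

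The share of pairs whose ratio changed differed with the distance between the starts. It was 5.96% for starts 0 to 100 bases apart (218 pairs), 7.54% for over 100 and up to 300 (345) and 12.5% for over 300 (281) from GMP to EoP. From EoP to Eos it was 18.8%, 24.1% and 28.5%, and from GMP to Eos 33.9%, 36.5% and 38.8%. Pairs whose starts cross (158) gave 8.23%, 12% and 26.6%, and their lower gene had a median of 4.99 CPM, against 9.66, 12.1 and 9.76 for the other classes. The part of these levels in the shares was not tested. In all 11 alternatives of each comparison, leaving out each library included, a smaller share of the shared-peak pairs than of all neighbouring pairs had a changed ratio.

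**Figure D4:**
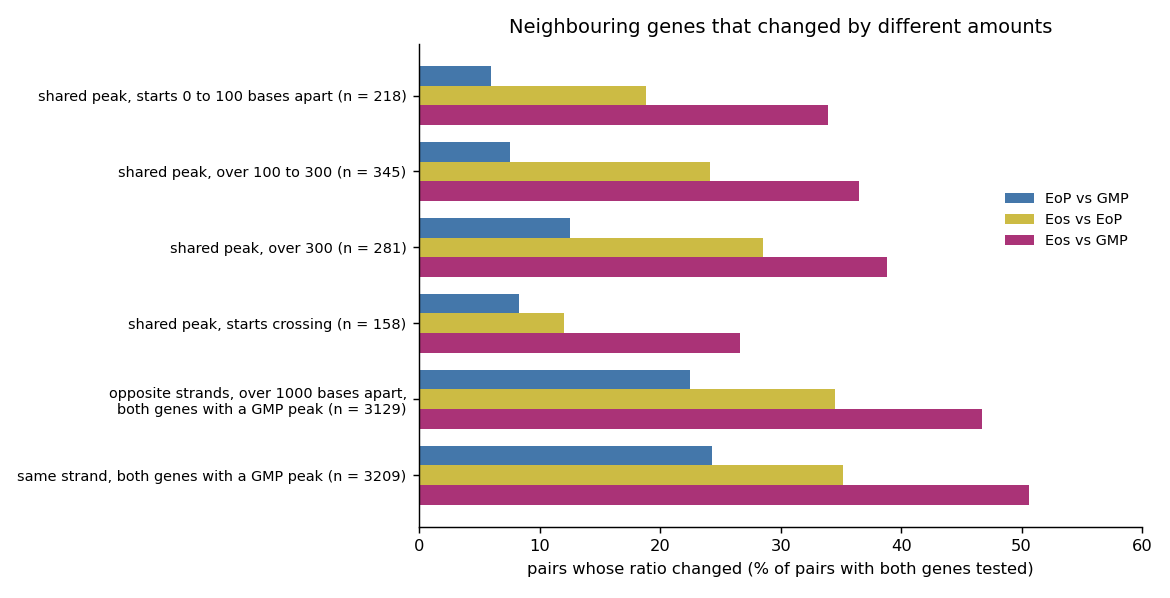
Percent of pairs with both genes tested whose log2 ratio changed (limma, adjusted p under 0.05 over 10334 neighbouring pairs), by distance between the starts for shared-peak pairs and for other neighbours with a GMP promoter peak at both genes. Shared-peak pairs 0 to 100 bases apart gave 5.96%, 18.8% and 33.9% in the 3 comparisons, and opposite-strand neighbours over 1000 bases apart 22.5%, 34.5% and 46.7%.

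The mark moved with the ratio in part of the pairs. In pairs without transcript overlap and with peaks in both cell types, the share of covered bases on each side of the middle was compared between cell types. Among pairs whose ratio changed, this share moved toward the gene that gained in 46 of 72 from GMP to EoP (63.9%), 143 of 201 from EoP to Eos (71.1%) and 226 of 308 from GMP to Eos (73.4%). Among pairs whose ratio change was not called, it moved toward the gene with the higher fitted change in 51.4%, 53.8% and 54.3%. The median shift in the changed pairs was 2.69, 4.65 and 5.13 percentage points, with quartiles of 0 and 8.14, 0 and 11.7, and 0 and 11.2. With 1 H3K4me3 library per cell type these shifts have no replicate check.

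Textbook bidirectional pairs were represented by 13 pairs, of whose 26 genes 25 were tested. From GMP to EoP 0 of the 25 were called by edgeR, 0 by DESeq2 and 0 at an unadjusted p under 0.05, where 26.6% of all genes and 12.6% of all paired genes were called by edgeR. From EoP to Eos 2 rose and 14 fell by edgeR, where 19.1% of all genes rose and 17.7% fell, and 11.9% and 24.5% of all paired genes. Hspd1 and Hspe1, which encode the mitochondrial chaperonins, fell by 1.61 (SE 0.29) and 2.18 (SE 0.48) on the log2 scale. Hspd1 measured 161 and 91.5 CPM in EoP and 47.4 and 35.5 in Eos, and Hspe1 40.1 and 13.2 and 5.82 and 5.85. Mcm4, of the replicative helicase, fell by 1.79 (SE 0.32) from 236 and 255 CPM to 96.2 and 46. Prkdc, the DNA-dependent protein kinase, fell by 0.62 (SE 0.21) from 94.8 and 112 to 72.4 and 62.1, and their ratio changed (SE 0.32 on the log2 scale, adjusted p = 0.0171, limma). Atm, the DNA damage kinase, and Npat, a histone gene activator, fell by 1.57 (SE 0.26) and 1.17 (SE 0.21). Gart, an enzyme of purine synthesis, fell by 1.5 (SE 0.25) from 70.6 and 84.8 CPM, while Son, a splicing cofactor, measured 783 and 853 in EoP and 1190 and 1340 in Eos. On the log2 scale, the ratio of Son to Gart rose by 2.14 (SE 0.31, adjusted p = 0.00149, limma). Psmb9, of the immunoproteasome, and Tap1, of the peptide transporter for antigen presentation, were the 2 that rose. Psmb9 measured 158 and 103 CPM in GMP, 152 and 112 in EoP and 261 and 231 in Eos, and Tap1 46.5 and 50.2, 58.8 and 45.3, and 150 and 150. Ranbp1 and Trmt2a fell by 1.6 (SE 0.4) and 0.85 (SE 0.21). Tk1, thymidine kinase, fell by 1.53 (SE 0.42), and the change of its neighbour Afmid was 0.51 (SE 0.48). Surf1, Surf2, Mrps12 and Sars2 were not called from EoP to Eos. Col4a1 and Col4a2, the basement membrane collagens, stayed between 0.514 and 2.83 CPM, and their GMP peak of 610 bases had no counterpart in EoP or Eos. Hspb2 had 0 counts in all 6 libraries, which allows up to 3 counts in a group. The transcripts of Ppat/Paics, Tk1/Afmid and Surf1/Surf2 overlap by 96 to 168 bases.

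Lists of genes with a named function, some of them gathered by gene name stem, differed in their share of paired members. Of 157 genes of the DNA replication and repair list, 59 (37.6%) belonged to a shared-peak pair, where 11.1% of all genes did. Of the 14324 genes with enough counts to be tested, 16.1% did. The list shares count members tested or not. The share was 29.5% of 271 mitochondrial genes, 30.1% of 163 RNA processing genes, 27.2% of 103 cell cycle genes and 26.9% of 104 transcription machinery genes. It was 24% of 262 ribosome and tRNA genes, 16.1% of 279 vesicle genes, 15.4% of 78 histone genes and 13.4% of 358 ubiquitin and proteasome genes. Zinc finger factors gave 8.62% of 429 and immune and myeloid genes 6.62% of 151. From EoP to Eos, where 19.1% of all genes tested rose and 17.7% fell, the paired replication and repair genes fell in 41 of 59 cases and rose in 1, Parp3. Orc6, of the origin recognition complex, fell by 2.15, Fen1, the flap endonuclease, by 1.97, and Rad51c, of homologous recombination, by 2.22 on the log2 scale. Their median was -1.34, and that of the 97 unpaired members of the list was also -1.34, with 62 lower and 3 higher. Of 28 paired cell cycle genes 16 fell and 1 rose, Anapc2, with a median of -1.19 against -1.49 for the 75 unpaired members, of which 65 fell and 2 rose. Of 63 paired ribosome and tRNA genes 34 fell and 1 rose, with a median of -0.93 against -0.82 for the 188 unpaired members, of which 84 fell and 6 rose. Of 80 paired mitochondrial genes 23 fell and 2 rose, and of the 174 unpaired members 63 fell and 4 rose. Of 48 paired RNA processing genes 17 fell and 0 rose by edgeR (0 at an unadjusted p under 0.05, 1 by DESeq2), and of the 106 unpaired members 41 fell and 5 rose. Among the mitochondrial genes Mrps27 (-2.17), of the mitochondrial ribosome, and Cox10 (-2), of heme A synthesis, fell the most after Hspe1, and Slc25a27 and Timm10b rose. Of 28 paired transcription machinery genes 12 fell and 0 rose by edgeR (1 at an unadjusted p under 0.05, 1 by DESeq2), Polr3d the most (-2.13). Of the 73 unpaired members 13 fell and 5 rose. Of 10 tested paired histone genes 3 fell and 0 rose by edgeR (0 at an unadjusted p under 0.05, 0 by DESeq2), and of the 48 unpaired members 19 fell and 1 rose.

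Of the 10 tested paired immune and myeloid genes, 8 rose from EoP to Eos and 0 fell by edgeR (0 at an unadjusted p under 0.05, 0 by DESeq2), with a median log2 fold change of 1.55, against 1.35 for the 139 unpaired members, of which 88 rose and 6 fell. They were Il1r2 (3.25), the decoy interleukin 1 receptor, Irf2 (2.26), an interferon regulatory factor, Myd88 (1.57) and Irak4 (1.11), of Toll-like receptor signalling, and Dtx3l, Parp9, Tap1 and Psmb9. The summed neutrophil markers were also higher in these libraries, and their part in this was not tested. Paired vesicle genes rose in 5 and fell in 7 of 44 cases, and the 210 unpaired members rose in 44 and fell in 25. Paired ubiquitin and proteasome genes rose in 9 and fell in 7 of 45, near the shares of all genes, and the 264 unpaired members rose in 48 and fell in 48. Paired zinc finger factors rose in 4 and fell in 5 of 36, and the 339 unpaired members rose in 42 and fell in 33. From GMP to EoP, where 9.49% of all genes rose and 17.1% fell, the paired replication and repair genes rose in 3 of 59 cases and fell in 0 by edgeR (0 at an unadjusted p under 0.05, 0 by DESeq2), and the 97 unpaired members rose in 5 and fell in 1. Paired cell cycle genes rose in 1 and fell in 2 of 28, and 10 of the 75 unpaired members rose. From GMP to Eos, where 22.7% of all genes rose and 31.8% fell, 35 of 59 paired replication and repair genes fell and 3 rose, and of the 97 unpaired members 59 fell and 7 rose. Of the 10 paired immune genes 7 rose, and of the 139 unpaired members 87 rose and 17 fell.

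The most abundant pairs, by the mean CPM of their lower gene, were Serp1/Eif2a, Hdlbp/Sept2, Tor1aip1/Tor1aip2, Itfg1/Phkb and Cln3/Apobr. Serp1, a stress-associated endoplasmic reticulum protein gene, measured 453 and 473 CPM in GMP, 805 and 669 in EoP and 691 and 831 in Eos. Eif2a, a translation initiation factor gene, measured 218 and 206, 153 and 145, and 114 and 82.8. GMP had the lowest libraries for Serp1 and the highest for Eif2a, and the transcripts of the pair overlap by 64 bases. As a log2 ratio, Eif2a to Serp1 fell by 1.18 in EoP (SE 0.29, adjusted p = 0.0173, limma), and neither gene was called alone in that comparison. Hdlbp, the vigilin gene, fell by 1.31 (SE 0.24) from 644 and 546 CPM in EoP to 258 and 221 in Eos, while Sept2, a septin gene, stayed between 121 and 165 CPM in all libraries. Itfg1 and Phkb, the phosphorylase kinase beta subunit gene, start 52 bases apart and were not called in any comparison. Itfg1 measured 99.2 to 170 CPM and Phkb 113 to 150.

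Of the 68 pairs without an EoP or Eos peak, the 6 with the highest GMP fold enrichment were Arpp21/2900079G21Rik (10.3), Ifitm7/2900011O08Rik (10.2), Tmie/Als2cl (9.73), 4930570G19Rik/Negr1 (8.83), B230119M05Rik/Armcx4 (8.69) and 2010002M12Rik/Ifit1 (8.66). Armcx4, of an armadillo repeat family, measured 27.2 and 31.7 CPM in GMP, 3.89 and 6.51 in EoP and 0.703 and 2.46 in Eos, with no overlap between the groups. It fell by 2.49 in EoP (SE 0.48, adjusted p = 0.00682, edgeR) on the log2 scale. Tmie, of the hair cell transduction channel, had 40 counts in GMP and Als2cl 35, and both had 0 in EoP and Eos. They were at least 17.9-fold and 15.6-fold lower in EoP than in GMP and at least 16.4-fold and 14.4-fold lower in Eos. Ifitm7, an interferon-induced membrane protein gene, had 64 counts in GMP, 0 in EoP (at least 28.6-fold lower) and 8 in Eos. 2900011O08Rik had 47 counts in GMP, 1 in EoP and 0 in Eos (at least 19.3-fold lower). Negr1, a neuronal adhesion gene, had 27 counts in GMP, 1 in EoP and 3 in Eos. 2010002M12Rik and Ifit1, interferon-induced genes with starts 145 bases apart, were measured at all 3 stages. 2010002M12Rik had 17 counts in GMP, 0 in EoP and 113 in Eos, at least 41-fold higher in Eos than in EoP. Ifit1 measured 1.45 and 2.09 CPM in GMP, 0.354 and 0.343 in EoP and 2.71 and 7.6 in Eos. Among the narrowest intervals, that of 9830166K06Rik/Chrm1 had no EoP or Eos overlap, but the Eos list held 405 covered bases on the 9830166K06Rik side. That gene measured 2.54 and 1.04 CPM in GMP, 3.3 and 4.29 in EoP and 90.8 and 93 in Eos, and rose 24-fold from EoP to Eos (log2 4.58, SE 0.34, adjusted p = 2.52e-05, edgeR). Chrm1, a muscarinic acetylcholine receptor gene, measured 9.94 and 12.6 CPM in Eos, and its change from EoP was 1.38 (SE 0.51, adjusted p = 0.0574, edgeR).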

How the data were processed

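RNA was measured in 6 libraries and H3K4me3 in 3. The authors deposited, per transcript, expected counts and RPKM, per the file headers, and peak lists with pileup signal, −log10 p and q values and fold ratios over background. STAR 2.4.0c and Bowtie 1.0.0 are named in the submitters' processing notes with no role, and the build is mm10. Neither the peak caller nor a control is stated. Counts and RPKM were summed per gene symbol. Lines with 1 interval were merged, keeping the highest fold. Coordinates are 1-based.

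Genes were tested with edgeR 4.0.16 (TMM, filterByExpr, quasi-likelihood, cell type as the sole term, all 6 libraries). Ratios were tested with limma 3.58.1 on voom log2 CPM over 10334 neighbouring pairs. CPM were TMM-scaled. R was 4.3.3. DESeq2 1.42.0, other filters, a replicate block and leaving out each library were alternatives. The tests were checked on simulated data. The chosen lists include lists gathered by gene name stem. The pairs named were those with the largest changes of ratio and the largest joint and opposite changes (at least 20 CPM in the higher gene). Others were the most abundant, textbook pairs, and the widest, narrowest and GMP-only peaks. Gene models (Gm, Rik and LOC names), micro and small nucleolar RNAs were left out of the choices by change and by abundance. Some pairs that this rule names are not reported here. The regions and lists were chosen with earlier results of these data known.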

Additional observations from a re-analysis of the deposited data

How the results depend on the processing

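Counts of calls from 2 libraries per cell type moved with single libraries. Leaving out each in turn gave 47 to 542 paired genes called, 4 to 53 pairs called in 1 direction and 21 to 127 changed ratios for EoP against GMP, lowest without a GMP or EoP library and highest without an Eos library. For Eos against EoP the ranges were 424 to 1047, 33 to 184 and 90 to 240, and for Eos against GMP 580 to 1266, 51 to 225 and 167 to 330. For EoP against GMP, no count filter gave 41 pairs called in 1 direction. At least 50 counts in 2 libraries gave 159 genes, 12 pairs and 38 ratios, and RPKM ratios 47. No count filter gave 112 changed ratios for Eos against EoP. DESeq2, its size factors and unweighted ratios stayed within 1.5 times. A cell type left with 1 library was assumed to vary like the others. The cause of these moves was not tested. No named result changed sign.

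Replicate numbers are in the labels without a stated pairing. Deviations of same-numbered libraries correlated at -0.0995, 0.0194 and -0.0849. With 2 libraries per cell type the deviations mirror each other, so these values cannot decide whether libraries were paired. With the replicate block 224, 804 and 1039 paired genes, 16, 111 and 150 pairs in 1 direction and 69, 195 and 317 ratios were called in the order EoP against GMP, Eos against EoP and Eos against GMP. Single H3K4me3 libraries allow no test of peak differences.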
